A study of Mus musculus with 84 samples.

Results

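The endocannabinoid and opioid receptor systems were followed through 10 genes in RNA from neuronal nuclei of the mouse frontal cortex: the cannabinoid receptor Cnr1, the endocannabinoid enzymes Dagla, Daglb, Mgll, Faah and Napepld, and the opioid family receptors Oprm1, Oprd1, Oprk1 and Oprl1. The genes were taken as a list by symbol, and all 10 were found among the 55401 gene IDs counted and passed the filter on low counts, with 17941 genes tested in all. The mice were of the strain 129S6/SvEvTac, aged 12 weeks, and each had been injected either with vehicle or with DOI (2,5-dimethoxy-4-iodoamphetamine), a psychedelic amphetamine that activates serotonin 2A receptors. Frontal cortex was taken from the vehicle mice and, in the DOI groups, 24 hours (24 h), 48 hours (48 h) or 7 days after the injection, and NeuN+ nuclei, those of neurons, were sorted from it. Each group had 4 mice, and the 2 libraries made from a mouse were summed into 1 value (16 mice, 32 libraries). The 3 DOI groups were each compared with the same 4 vehicle mice, so the comparisons with vehicle are not independent of each other.

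The endocannabinoid system is a retrograde signal: a postsynaptic neuron makes 2-arachidonoylglycerol (2-AG) or anandamide from membrane lipids, and the lipid crosses the synapse to the CB1 receptor on the presynaptic terminal, where it lowers transmitter release. Opioid receptors respond to peptides cut from larger precursors. Both kinds of receptor couple to inhibitory G proteins (Gi/o), which lower cyclic AMP, close presynaptic calcium channels and open GIRK potassium channels. In the cortex, CB1 is most abundant in interneurons that contain cholecystokinin, with lower levels in pyramidal cells, and mu opioid receptors are found mainly on interneurons.

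Levels are given as CPM, the counts of a gene scaled to a common total. Groups were compared by the quasi-likelihood test of edgeR, with p adjusted (Benjamini-Hochberg) over all 17941 genes and a threshold of 0.05. At 24 h 6 of the 10 genes passed, against 24.2% of all genes tested: 2 were higher (Dagla and Oprm1), against 13.8% of all genes, and 4 were lower (Daglb, Faah, Oprd1 and Oprl1), against 10.4%. At 48 h the 6 genes that passed were the same, each in the same direction, against 30.1% of all genes (16.8% higher, 13.3% lower). At 7 days 0 of the 10 genes passed by this test, against 0% of all genes tested. At an unadjusted p under 0.05, 4 of them (Dagla, Oprm1, Oprk1, Oprd1) were past it at 7 days, against 16.8% of all genes. DESeq2 called 2 of the 10 at 7 days (Dagla and Oprm1), against 4.44% of the 17936 genes to which it gave an adjusted p. Limma voom called 0 of the 10, against 0% of all genes. The median log2 fold change of the 10 genes was -0.44 at 24 h, -0.44 at 48 h and -0.17 at 7 days, beside 0.03, 0.02 and 0.02 for all genes tested.

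Total counts per mouse were 9151680 to 11517452 with vehicle, 6441396 to 8090559 after 24 h, 5834248 to 7344355 after 48 h and 6972577 to 12354785 at 7 days, so depth and group were not independent at 24 h and 48 h. A floor of 3 counts corresponded to 0.254 to 0.502 CPM, which covers counting error only. The pan-neuronal markers Rbfox3, Snap25, Syt1 and Tubb3 were detected in every mouse (3364 to 5681 CPM summed), while the endothelial markers summed to at most 9.23 CPM. The 18S ribosomal RNA pseudogene Rn18s-rs5 separated the mice: it stood at 72.3 to 110 CPM with vehicle, 3258 to 15064 after 24 h, 5108 to 16124 after 48 h, and at 87.3, 6171, 63.4 and 4622 CPM in mice 1 to 4 at 7 days. The share of mitochondrial counts was 0.0171% to 0.0701% with vehicle, 0.0621% to 0.101% at 24 h, 0.108% to 0.268% at 48 h, and 0.0413%, 0.130%, 0.0210% and 0.114% in mice 1 to 4 at 7 days. With the log2 level of Rn18s-rs5 as a covariate 0 of the 10 genes passed in any comparison by edgeR's test, as did 0% of all genes at 24 h, at 48 h and at 7 days against vehicle and 0.0279% over the 4 groups, in a fit where 75.1% of that level's variance lay between the groups, so the covariate and the group could be separated only in part. In that fit the differences of Daglb, Faah, Napepld and Oprd1 from vehicle at 24 h and 48 h were above 0, with adjusted p of at least 0.958. RNA came from pools of nuclei, so fewer nuclei of a type and less RNA per nucleus cannot be told apart.

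In the vehicle mice, levels per kilobase of exon placed Faah (58.9 ± 4.75 CPM per kb, SD, n = 4) and Cnr1 (58.7 ± 13.7) at the top, near the 95.8th percentile of the genes tested. The nociceptin receptor Oprl1 followed at 49.6 ± 6.94 CPM per kb, within the range of Cnr1. Mgll (28.7 ± 5.54) and Daglb (16.6 ± 3.30) came next, each with a range apart from its neighbours. Napepld (7.23 ± 1.34) and Oprd1 (6.45 ± 1.26) overlapped. Oprk1 (2.84 ± 0.291), Dagla (2.06 ± 0.213) and Oprm1 (0.565 ± 0.124 CPM per kb, the 14.2nd percentile) were the lowest, without overlap. The vehicle nuclei thus held the RNA of the 2-AG synthase Daglb at a higher level per length than that of its paralogue Dagla.

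**Figure D1:**
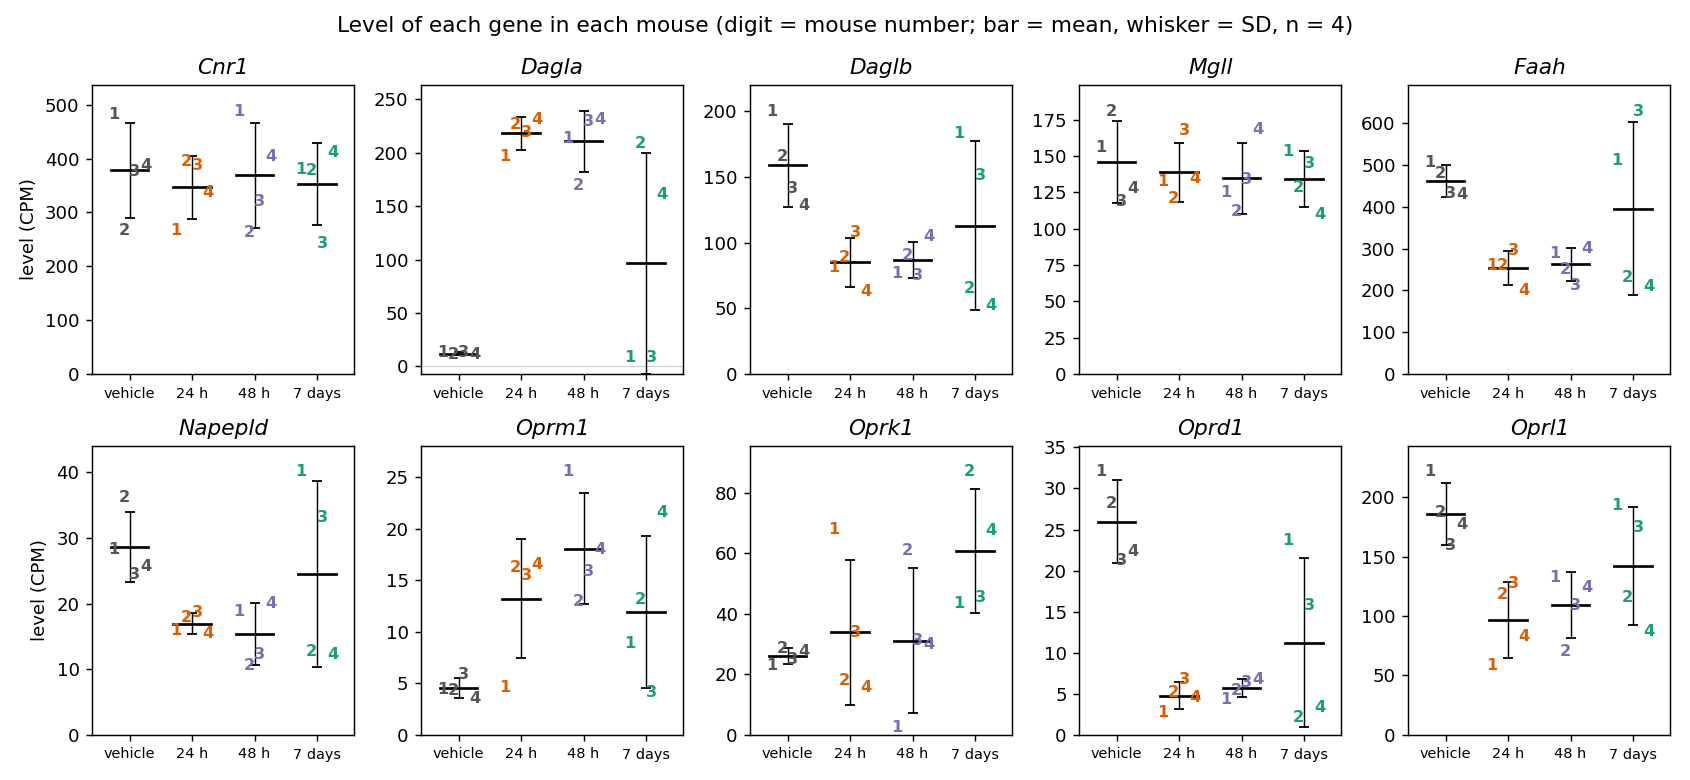
CPM of each of the 10 genes (y axis, linear) in the vehicle, 24 h, 48 h and 7 days groups (x axis), each digit being 1 mouse by its number, the bar the mean and the whisker the SD of 4 mice. All 8 mice at 24 h and 48 h lie between 169 and 232 CPM for Dagla, where the vehicle mice lie between 10.6 and 13.1, while at 7 days mice 2 and 4 are far from mice 1 and 3 for most genes.

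The sequence in front of the start of the genes that changed was read for motifs of activity-dependent and general transcription factors, to see whether the 4 genes that fell at 24 h and 48 h shared such letters. Windows of 250 bases before each start site came from a table of RefSeq start sites (GRCm38.p6), in which 8 of the 10 genes were matched, all but Dagla and Oprk1. The motifs searched, on both strands, were the cyclic AMP response element TGACGTCA, its core TGACG, the AP-1 site TGANTCA, the GC box GGGCGG, the TATA box TATAAA and the EGR site GCGNGGGCG. The windows of 3 genes that fell (Oprd1, Faah and Daglb) and of a start site of Oprm1, which rose, are shown from 5′ to 3′ in the direction of the gene, with GC boxes in capitals.
Oprd1, chr4:132144487-132144736, minus strand: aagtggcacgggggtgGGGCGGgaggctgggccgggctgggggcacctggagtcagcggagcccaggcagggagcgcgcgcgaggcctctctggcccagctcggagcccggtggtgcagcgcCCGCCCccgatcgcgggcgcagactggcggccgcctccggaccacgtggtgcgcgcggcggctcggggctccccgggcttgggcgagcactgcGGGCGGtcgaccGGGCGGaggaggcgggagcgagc
Faah, chr4:116017925-116018174, minus strand: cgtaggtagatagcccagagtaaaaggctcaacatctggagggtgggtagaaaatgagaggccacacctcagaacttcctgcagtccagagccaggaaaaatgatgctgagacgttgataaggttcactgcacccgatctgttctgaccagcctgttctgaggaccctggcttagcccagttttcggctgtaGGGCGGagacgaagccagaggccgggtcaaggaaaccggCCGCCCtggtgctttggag
Daglb, chr5:143464243-143464492, plus strand: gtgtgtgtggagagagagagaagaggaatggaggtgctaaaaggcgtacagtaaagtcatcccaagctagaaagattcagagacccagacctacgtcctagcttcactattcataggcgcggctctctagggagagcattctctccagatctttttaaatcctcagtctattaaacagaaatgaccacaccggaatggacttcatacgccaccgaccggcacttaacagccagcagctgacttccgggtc
Oprm1, chr10:6788320-6788569, plus strand: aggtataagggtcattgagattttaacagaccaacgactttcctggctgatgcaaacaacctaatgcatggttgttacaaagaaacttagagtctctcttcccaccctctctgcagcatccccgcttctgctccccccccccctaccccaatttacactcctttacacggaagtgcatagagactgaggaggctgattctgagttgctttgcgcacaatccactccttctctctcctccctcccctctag
The Oprd1 window had 80.0% G and C, 34 CG pairs and 4 GC boxes, with a GC content above that of 98.8% of the 32817 windows in the table. The Faah window had 55.6%, 9 CG pairs and 2 GC boxes. Those of Daglb (49.2%, 9 CG pairs) and Oprm1 (50.0%, 4 CG pairs) held none of the motifs. Oprl1, the fourth gene that fell, had 3 start windows in the table with 44.4%, 54.8% and 48.8%, the first with a TATA box, so the windows of the genes that fell ran from 44.4% to 80.0% G and C. High GC content was not particular to Oprd1. Of the genes that did not pass, Cnr1 had 3 windows with 79.2%, 68.8% and 49.2%. The first, with 36 CG pairs and 5 GC boxes, lay above 98.4% of all windows. Mgll had 2 windows with 68.0% and 74.8%, the second with 40 CG pairs, 1 GC box and 1 EGR site. Napepld had 69.6% and 0 GC boxes. Over all windows the median was 52.4% G and C and 6 CG pairs. The GC box was present in 32.7% of all windows, the TATA box in 12.4%, the core TGACG in 17.7%, the AP-1 site in 6.75%, the EGR site in 4.70% and the full cyclic AMP response element in 1.55%. The windows of the 8 genes held 0 matches to the response element, its core or the AP-1 site. The window of Oprm1 shown lies inside the gene as annotated by Ensembl, which begins at a start site farther upstream.

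Dagla encodes diacylglycerol lipase alpha, the enzyme that makes 2-AG for retrograde signalling at synapses (Ensembl gene ENSMUSG00000035735, GRCm38 chromosome 19, 10245265 to 10304877, minus strand). It stood at 12.7, 11.0, 13.1 and 10.6 CPM in vehicle mice 1 to 4. At 24 h its level was 197, 227, 219 and 232 CPM. At 48 h it was 213, 169, 230 and 231 CPM. Every mouse of both groups stood far above the highest vehicle mouse. The log2 fold change was 4.20 (SE 0.73, 95% interval 2.66 to 5.74, adjusted p = 0.00247) at 24 h, an 18.4-fold higher level, and 4.15 (SE 0.73, adjusted p = 0.00182) at 48 h, 17.7-fold higher. Only 171 of the 17941 genes had a higher log2 fold change at 24 h, and 210 at 48 h. The separation was present in every single library, with 8.35 to 14.0 CPM over the vehicle libraries, 193 to 256 over those at 24 h and 168 to 238 over those at 48 h. Per length, Dagla thereby went from 2.06 to 38.0 and 36.7 CPM per kb. Rn18s-rs5 was also higher in every mouse of both groups than in any vehicle mouse. With its level as a covariate the log2 fold change of Dagla was 0.06 at 24 h (adjusted p = 0.993) and -0.30 at 48 h (adjusted p = 0.995).

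Daglb, the second diacylglycerol lipase, went the other way. It stood at 200, 165, 141 and 128 CPM in the vehicle mice, at 81.3, 88.7, 108 and 62.6 at 24 h, and at 76.5, 90.4, 75.0 and 104 at 48 h, with no overlap between either DOI group and vehicle. The fall was 1.86-fold at 24 h (log2 fold change -0.90, SE 0.31, adjusted p = 0.0417) and 1.83-fold at 48 h (-0.87, SE 0.31, adjusted p = 0.0402). Both calls were near the threshold: that at 24 h was lost without any 1 of 7 of the 8 mice compared (vehicle mice 1 to 4 and 24 h mice 1, 2 and 4), with adjusted p from 0.0396 to 0.124 over the 8 fits. That at 48 h was lost without any 1 of 6 (vehicle mice 1 to 3 and 48 h mice 1 to 3), with 0.0450 to 0.117. Scaling by total counts alone also ended both calls (adjusted p = 0.0561 at 24 h and 0.0540 at 48 h), and library 2 alone that at 24 h (adjusted p = 0.0577). The fits with a mouse left out kept the 7 days group. Its biological coefficient of variation was 50.4%, against 21.5% with vehicle, 32.9% at 24 h and 33.9% at 48 h. Both calls held with only the groups compared in the fit and with the 7 days group left out. So did those of Faah and Oprl1. Daglb shares 2309 exonic bases, 24.1% of its exons, with Rac1 on the opposite strand, and per the file headers the counting did not use strand, so its level is uncertain there. No exonic base of Dagla, Cnr1, Faah, Napepld, Oprk1, Oprd1 or Oprl1 is shared with another gene.

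The ratio of Dagla to Daglb per kilobase, which does not depend on how libraries are scaled, was 0.106 to 0.154 in the vehicle mice, 3.38 to 6.16 after 24 h and 3.11 to 5.10 after 48 h. The lipase with the higher RNA level was thus Daglb in 4 of 4 vehicle mice and Dagla in 8 of 8 mice at 24 h and 48 h. At 7 days the ratio was 0.0755, 5.35, 0.0938 and 5.12 in mice 1 to 4.

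Mgll encodes monoacylglycerol lipase, the main enzyme that breaks down 2-AG. Its level was 156, 181, 119 and 128 CPM with vehicle, 132, 121, 168 and 135 at 24 h, 125, 112, 134 and 168 at 48 h, and 153, 128, 145 and 110 at 7 days, and the groups overlapped throughout. The log2 difference from vehicle was -0.07 (95% interval -0.45 to 0.31) after 24 h, -0.11 (-0.50 to 0.27) after 48 h and -0.12 (-0.50 to 0.26) at 7 days. Changes within these bounds were not excluded. Scaling by total counts alone turned the 24 h value to 0.0343. With Dagla higher, the ratio of Mgll to Dagla per kilobase was 10.3 to 18.6 with vehicle, 0.601 to 0.868 after 24 h and 0.658 to 0.826 after 48 h.

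Faah encodes fatty acid amide hydrolase, which breaks down anandamide. It stood at 506, 479, 433 and 429 CPM in the vehicle mice, at 260, 259, 297 and 200 at 24 h, and at 288, 250, 212 and 299 at 48 h. No mouse at 24 h or 48 h reached the lowest vehicle mouse. Faah was 1.82-fold lower at 24 h (log2 fold change -0.86, SE 0.28, adjusted p = 0.0304) and 1.76-fold lower at 48 h (-0.82, SE 0.27, adjusted p = 0.0326). The 24 h call was lost without any 1 of 6 of the 8 mice (vehicle mice 1, 2 and 4 and 24 h mice 1, 2 and 4; adjusted p 0.0359 to 0.0934 over the 8 fits), and the 48 h call without any 1 of 5 (vehicle mice 1, 2 and 4 and 48 h mice 2 and 3; 0.0417 to 0.0911). Its direction held in each of these fits. The 48 h call was also lost with the striatal markers as a covariate (log2 fold change -0.57, adjusted p = 0.0838). Leaving out the mice whose file headers carry another number ended it too (0.0531). Leaving out the mice with the fewest genes detected ended both calls (0.0643 at 24 h and 0.0524 at 48 h).

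Napepld encodes the phospholipase D that releases anandamide from its precursor. Its levels were 28.2, 36.2, 24.4 and 25.6 CPM with vehicle, 15.8, 17.9, 18.6 and 15.4 at 24 h, and 18.8, 10.5, 12.3 and 20.1 at 48 h. Although neither DOI group overlapped vehicle, Napepld did not pass the test at 24 h (log2 fold change -0.75, SE 0.34, adjusted p = 0.105) or at 48 h (-0.89, SE 0.34, adjusted p = 0.0537). The call depended on the fit. Napepld passed at both times by limma voom, with only the groups compared in the fit (adjusted p = 0.00957 and 0.0107) and with the 7 days group left out (0.0178 and 0.00642). At 24 h it also passed with the striatal markers as a covariate, and at 48 h by DESeq2, with no filter on low counts, with library 1 alone, with thinned counts and without 48 h mouse 4 (adjusted p 0.0186 to 0.0470). With Napepld, Dagla, Daglb, Faah, Oprd1 and Oprl1, 6 of the 10 genes had no overlap with vehicle at 24 h, where 35.7% of all genes had none, and with Oprm1 7 of 10 at 48 h, where 38.1% had none.

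Cnr1 encodes the CB1 receptor. It stood at 482, 267, 376 and 387 CPM with vehicle, at 267, 395, 387 and 337 at 24 h, at 488, 264, 321 and 404 at 48 h and at 380, 377, 242 and 411 at 7 days. The ranges of the 4 groups lay over each other. The log2 difference was -0.13 (95% interval -0.60 to 0.35) at 24 h, -0.04 (-0.51 to 0.44) at 48 h, where scaling by total counts gave 0.0673, and -0.10 (-0.58 to 0.37) at 7 days. A change above about 0.60 in either direction lay outside these intervals. Compared over all 4 groups at once, Cnr1 had an adjusted p of 0.961. The genes whose log2 CPM followed that of Cnr1 most closely over the 16 mice, out of 12793 genes whose log2 CPM averaged 2 or more, were the protocadherin Pcdh19 (r = 0.86), the small GTPase Rab3c (0.85) and the astrotactin Astn1 (0.84). After the group means were subtracted r was 0.89, 0.89 and 0.85. These 16 points share libraries, depth and mice, and the values are a description.

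**Figure D2:**
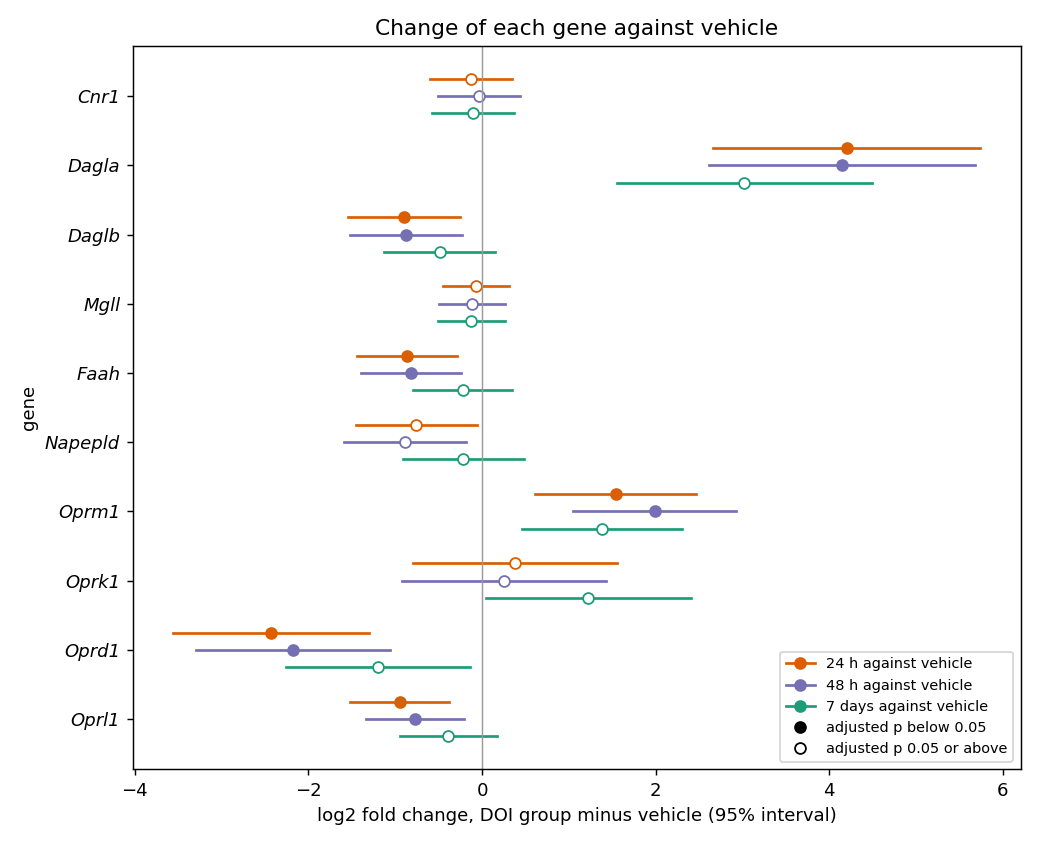
Log2 fold change of each gene (y axis) against vehicle at 24 h, 48 h and 7 days (x axis), with 95% intervals from edgeR's quasi-likelihood fit over 4 mice per group, and filled points where the adjusted p is below 0.05. Dagla (4.20 and 4.15) and Oprd1 (-2.43 and -2.18) lie farthest from 0 at 24 h and 48 h, Cnr1 and Mgll lie near 0, and no point at 7 days is filled.

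Among the opioid receptors, Oprd1 and Oprm1 moved in opposite directions. Oprd1 encodes the delta receptor, for which enkephalins are the main ligands (ENSMUSG00000050511, GRCm38 chromosome 4, 132110726 to 132144486, minus strand). Its start window is the GC-rich one printed with the promoters, and a window of Cnr1, which did not pass, was nearly as GC-rich. It stood at 32.0, 28.2, 21.2 and 22.4 CPM in the vehicle mice, at 2.74, 5.21, 6.72 and 4.50 at 24 h, and at 4.35, 5.36, 6.37 and 6.78 at 48 h. The highest treated mouse of these groups was below 7 CPM and the lowest vehicle mouse above 21. Oprd1 was 5.39-fold lower at 24 h (log2 fold change -2.43, SE 0.54, adjusted p = 0.00557) and 4.53-fold lower at 48 h (-2.18, SE 0.53, adjusted p = 0.00711). Of all genes tested, 77 had a lower log2 fold change at 24 h and 148 at 48 h. The values at 24 h rest on 18 to 53 counts per mouse, and those with vehicle on 216 to 339. The call held with each mouse left out in turn, with adjusted p from 0.0103 to 0.0211 after 24 h and 0.0135 to 0.0228 after 48 h.

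Oprm1 encodes the mu receptor, the target of morphine (ENSMUSG00000000766, GRCm38 chromosome 10, 6758506 to 7038198, plus strand). It was the least abundant of the 10 genes, at 4.44, 4.32, 5.89 and 3.50 CPM in the vehicle mice on 36 to 60 counts. At 24 h mice 2 to 4 stood at 16.2, 15.5 and 16.6 CPM, while mouse 1 stood at 4.57, within the vehicle range. At 48 h the levels were 25.5, 12.9, 15.9 and 17.9 CPM, all above vehicle. Oprm1 was 2.91-fold higher at 24 h (log2 fold change 1.54, SE 0.44, adjusted p = 0.0192) and 3.97-fold higher at 48 h (1.99, SE 0.45, adjusted p = 0.00481). Mouse 1 at 24 h also had the lowest Rn18s-rs5 level of its group, 3258 CPM. Oprm1 shares 96 exonic bases, 1.19% of its exons, with Ipcef1 on the opposite strand. The 24 h call was lost without vehicle mouse 1, 2 or 4 or 24 h mouse 4 (adjusted p 0.00857 to 0.0569 over the 8 fits with a mouse left out), and the 48 h call in 0 of 8 fits. Library 2 of each mouse alone also ended the 24 h call (log2 fold change 1.15, adjusted p = 0.0973).

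The per-kilobase ratio of Oprm1 to Oprd1 was 0.0694 to 0.139 in the vehicle mice, 0.834 to 1.84 after 24 h and 1.20 to 2.94 after 48 h, so the vehicle range stood apart from both DOI ranges, which overlapped each other. The mouse with the low Oprm1 level at 24 h had the lowest ratio of its group, 0.834, still above every vehicle mouse, since its Oprd1 level was also the lowest of the group (2.74 CPM). At 7 days the ratio was 0.188, 3.08, 0.130 and 3.21 in mice 1 to 4.

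The genes closest to Oprm1 over the 16 mice by the same measure were the ribosomal protein gene Rpl10 (r = 0.94), the trafficking complex subunit Trappc10 (0.93) and the membrane protein Tmem63c (0.93), and after the group means were subtracted r was 0.91, 0.86 and 0.92.

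Oprl1 encodes the nociceptin receptor, a member of the opioid family that does not bind classical opioids. It stood at 221, 187, 159 and 177 CPM with vehicle, at 58.5, 118, 127 and 82.9 at 24 h and at 133, 70.1, 109 and 124 at 48 h, and neither DOI group overlapped vehicle. Oprl1 was 1.93-fold lower at 24 h (log2 fold change -0.95, SE 0.27, adjusted p = 0.0191) and 1.71-fold lower at 48 h (-0.77, SE 0.27, adjusted p = 0.0389). The 24 h call was lost without vehicle mouse 1 or 24 h mouse 1 or 4 (adjusted p 0.0172 to 0.0597 over 8 fits), and the 48 h call without vehicle mouse 1, 2 or 4 or 48 h mouse 2 or 3 (0.0403 to 0.122). Scaling by total counts (adjusted p = 0.0592) and library 2 alone (adjusted p = 0.0675) each ended the 48 h call. So did the mouse number as a block (0.0533), the striatal markers as a covariate (0.0787) and leaving out the mice whose file headers carry another number (0.0768). Without the mice with the fewest genes detected the 24 h call was lost (0.0596).

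Oprk1, the kappa receptor of dynorphin peptides, behaved unlike the other receptors. Its 4 vehicle mice were close together at 22.8, 28.7, 24.9 and 27.7 CPM. The mice at 24 h ran from 15.7 to 67.8 CPM (67.8, 18.01, 34.0 and 15.7) and those at 48 h from 2.32 to 60.9 (2.32, 60.9, 31.3 and 29.9). Both groups extended above and below the vehicle range, and the log2 difference was 0.38 (95% interval -0.79 to 1.55) at 24 h and 0.25 (-0.92 to 1.43) at 48 h. Without mouse 1 of the 24 h group its value was -0.20, and without mouse 2 of the 48 h group -0.29. At 7 days all 4 mice, at 43.6, 87.0, 45.4 and 67.7 CPM, stood above all vehicle mice. It was the only 1 of the 10 genes without overlap there, against 5.85% of all genes tested, 2.81% in this direction. The 7 days difference of 1.23 (SE 0.56, 95% interval 0.05 to 2.40, unadjusted p = 0.0420) did not pass after adjustment (adjusted p = 0.276). With no filter on low counts it did (log2 fold change 1.21, adjusted p = 0.0127), in a fit that called 2.62% of 36503 genes at 7 days.

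The level of Oprk1 was compared with markers of claustrum and layer 6b neurons. Over the 16 mice its log2 CPM followed the log2 of the summed CPM of 6 such markers (Nr4a2, Gnb4, Ntng2, Lxn, Cplx3 and Ccn2, all detected in every mouse) with Pearson's r = 0.82 and Spearman's rho = 0.81, with r = 0.76 without the 2 mice farthest from the median sum and 0.82 after the group means were subtracted. The sum was 112 to 195 CPM with vehicle, 85.7 to 185 after 24 h, 72.7 to 277 after 48 h and 224 to 284 at 7 days, so that the 7 days mice stood above the vehicle mice here too. Nr4a2 and Gnb4 made up most of it. Taken singly, Lxn (r = 0.89), Gnb4 (0.78), Ccn2 (0.72), Nr4a2 (0.70) and Ntng2 (0.30) had a positive correlation with Oprk1 and Cplx3 a negative one (-0.37). Cplx3 was at 15.7 to 29.0 CPM with vehicle, at 4.15 and 1.96 in 7 days mice 2 and 4, which had the most Oprk1 of that group, and at 0.914 in 24 h mouse 1, where Oprk1 was at 67.8. In the 48 h mouse with Oprk1 at 2.32 CPM the sum was at its lowest, 72.7 CPM. The part of these cells in the level of Oprk1 was not tested.

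**Figure D3:**
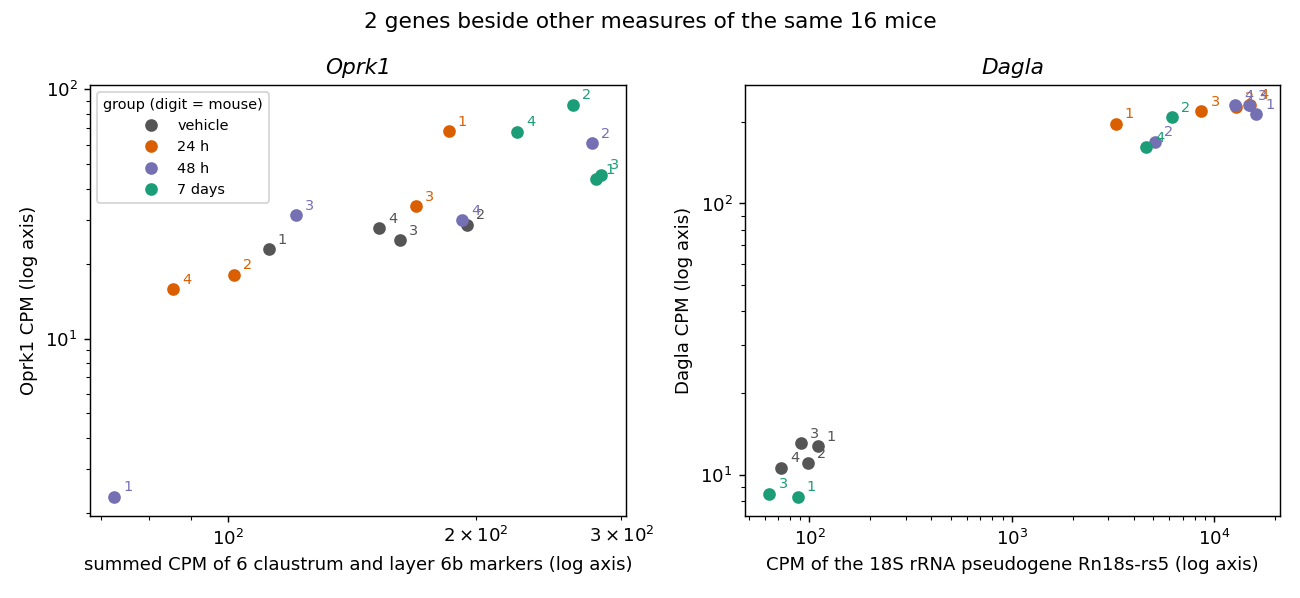
Left, Oprk1 CPM (y, log axis) against the summed CPM of 6 claustrum and layer 6b markers (x, log axis) in the 16 mice. Right, Dagla CPM against the CPM of the 18S rRNA pseudogene Rn18s-rs5, both on log axes, where the points form 2 clusters: the 4 vehicle mice with mice 1 and 3 at 7 days, and the other 10 mice. Digits are mouse numbers and colours are groups.

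The 7 days group was not uniform for 6 of the 10 genes, and for these its mean lay between 2 pairs of mice. Dagla stood at 8.30 and 8.52 CPM in mice 1 and 3, below all vehicle mice, and at 208 and 161 CPM in mice 2 and 4. Oprd1 stood at 23.6 and 15.8 CPM in mice 1 and 3 and at 2.13 and 3.36 in mice 2 and 4. Faah (512 and 629 against 232 and 210 CPM), Daglb (183 and 151 against 64.8 and 52.5), Napepld (40.1 and 33.2 against 12.7 and 12.3) and Oprl1 (193 and 175 against 115 and 87.0) were split in the same way. For these 6 genes mice 2 and 4 lay on the side of the 24 h and 48 h mice. Oprm1 was at 8.89, 13.1, 4.09 and 21.5 CPM, so mouse 1 lay between the vehicle range and mouse 2. Of the 10 genes, 8 in mouse 2 and 7 in mouse 4 lay within the range of the 8 mice at 24 h and 48 h, and 4 in mouse 1 and 2 in mouse 3. Within the vehicle range lay 5 in mouse 1 and 5 in mouse 3, 2 in mouse 2 and 1 in mouse 4.

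Other measures separated the 7 days mice alike. Mice 2 and 4 had the higher Rn18s-rs5 levels (6171 and 4622 CPM against 87.3 and 63.4) and the higher mitochondrial shares. They also had the highest summed level of 8 striatal projection neuron markers, at 1138 and 979 CPM, with 391 and 273 in mice 1 and 3 and 227 to 286 with vehicle. Drd2 reached at most 15.5 CPM and Adora2a at most 6.39, and Adora2a was at 0 in 9 of the 16 mice. The summed level of the 7 excitatory neuron markers was 1394 and 1248 CPM in mice 2 and 4, 484 and 440 in mice 1 and 3, 481 to 532 with vehicle and 964 to 2407 over the 24 h mice. Camk2a alone stood at 1176 and 1005 CPM in mice 2 and 4 and at 128 and 164 in mice 1 and 3. The summed level of the 7 markers of CCK-type interneurons was 2275 and 2063 CPM in mice 2 and 4, 1149 and 763 in mice 1 and 3 and 799 to 1634 with vehicle. Cck and Vip made up most of that sum. Htr3a (4.37 and 3.64 CPM in mice 2 and 4 against 11.9 and 10.2 in mice 1 and 3) and Npas1 (4.93 and 5.88 against 14.4 and 10.6) went the other way, and Adarb2 (50.9 and 69.3 against 66.1 and 75.1) was not separated in the direction of the sum. The summed level of 6 microglia markers (C1qa at 0 in 1 of the 16 mice) went the other way, with 73.2 and 53.6 CPM in mice 2 and 4, 143 and 128 in mice 1 and 3, 83.5 to 122 with vehicle, 49.6 to 107 after 24 h and 54.1 to 88.1 after 48 h. Over the 16 mice the log2 of the microglia sum followed Faah (r = 0.85, and 0.81 after the group means were subtracted), Napepld (0.85 and 0.79), Daglb (0.80 and 0.75), Oprl1 (0.72 and 0.60) and Oprd1 (0.70 and 0.62), and ran against Dagla (-0.76 and -0.70). The log2 level of Rn18s-rs5 ran with Dagla (r = 0.99) and against Faah (-0.91), Oprd1 (-0.87) and Daglb (-0.83). It also ran against Napepld (-0.81) and Oprl1 (-0.71), so such values were not particular to the microglia markers. The parts of these measures in the split were not tested one by one.

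In the comparison of 7 days with vehicle the calls of Dagla, Oprm1 and Oprd1 depended on single mice. The log2 fold change of Dagla at 7 days was 3.02 (SE 0.70, adjusted p = 0.0960), and it passed without 7 days mouse 1 (adjusted p = 0.00504) or mouse 3 (adjusted p = 0.00839). Oprm1 at 7 days was at 1.38 (SE 0.44, adjusted p = 0.136) and passed without mouse 3 (adjusted p = 0.0240). Oprd1 was at -1.20 (SE 0.51, adjusted p = 0.242) and passed without mouse 1 (adjusted p = 0.0309). Daglb (-0.49), Faah (-0.22), Napepld (-0.21) and Oprl1 (-0.39) had adjusted p from 0.439 to 0.776. Each of these passed in 0 of the 8 fits with a mouse left out. Between the DOI groups 0 of the 10 genes passed in any comparison (0%, 0.00557% and 0% of all genes for 48 h against 24 h, 7 days against 24 h and 7 days against 48 h): at an unadjusted p under 0.05 there were 0 for 48 h against 24 h (1.88% of all genes), 2 for 7 days against 24 h (14.2%; Faah and Oprd1) and 1 for 7 days against 48 h (16.5%; Faah). DESeq2 (0%, 2.16% and 3.15% of all genes) and limma voom (0%, 0.117% and 0%) also called 0 of the 10 in each of these. Compared over all 4 groups at once, 3 of the 10 passed against 18.8% of all genes: Dagla (adjusted p = 0.00554), Oprd1 (0.00937) and Oprm1 (0.0253).

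**Figure D4:**
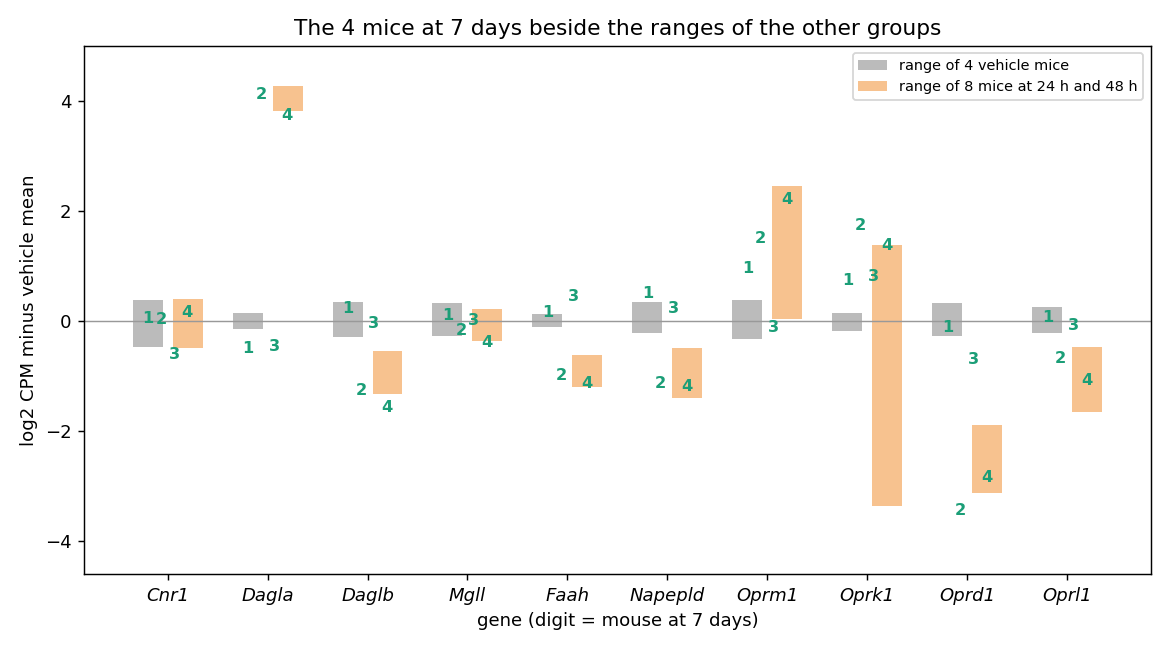
Log2 CPM minus the vehicle mean (y axis) of each gene (x axis) in the 4 mice at 7 days, drawn as digits, beside the range of the 4 vehicle mice (grey bars) and of the 8 mice at 24 h and 48 h (orange bars). For Dagla, Daglb, Faah, Napepld, Oprd1 and Oprl1 mice 2 and 4 lie near the orange bars and mice 1 and 3 on the side of the grey bars, while for Oprk1 all 4 lie above the grey bar.

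To place the receptors in their pathways, 39 further genes were taken in 3 lists, of which 36 could be tested. At 24 h 8 of the 36 passed (7 higher, 1 lower) and at 48 h 10 (7 higher, 3 lower), shares of 22.2% and 27.8% that are near the 24.2% and 30.1% of all genes. At 7 days 0 passed, as did 0% of all genes, with 6 at an unadjusted p under 0.05 (16.8% of all genes were past it). DESeq2 called 3 (4.44% of all genes) and limma voom 0 (0% of all genes).

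Of the list of further endocannabinoid genes, 13 of 16 were tested (Cnr2, Trpv1 and Gpr55 were too low). By edgeR's test 0 of the 13 passed at 24 h, with 1 at an unadjusted p under 0.05 (38.4% of all genes were past it), and 1 passed at 48 h, where 30.1% of all genes passed. It was Abhd12, a serine hydrolase that can break down 2-AG, at 331, 277, 223 and 233 CPM with vehicle and 118, 134, 94.0 and 180 at 48 h (log2 fold change -1.01, SE 0.34, adjusted p = 0.0339). The medians of the list were -0.14 and -0.31 at 24 h and 48 h.

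Of the 8 opioid peptide and processing genes, 1 (12.5%) passed at 24 h and at 48 h, below the 24.2% and 30.1% of all genes that passed. Cpe, the carboxypeptidase that trims peptide precursors, was at 3339, 1983, 1823 and 1973 CPM with vehicle, at 1398, 1453, 1432 and 1117 at 24 h, and at 1184, 831, 1464 and 1366 at 48 h. Its log2 fold change was -0.76 (SE 0.24, adjusted p = 0.0303) after 24 h and -0.91 (SE 0.24, adjusted p = 0.0106) after 48 h. The peptide precursor genes Penk, Pdyn, Pomc and Pnoc did not pass in any comparison with vehicle. Penk, the enkephalin precursor, was named after its values were seen: it stood at 332, 941, 186 and 570 CPM in mice 1 to 4 at 7 days against 102 to 237 with vehicle (log2 difference 1.63, adjusted p = 0.0960). The mice with the most Penk at 7 days were those with the highest striatal marker sums.

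Most of the pathway calls lay in the list of 15 Gi/o signalling partners, where 7 were higher and 0 lower at 24 h, and 7 were higher and 1 lower at 48 h. Of all genes, 13.8% were higher and 10.4% lower at 24 h, and 16.8% and 13.3% at 48 h. The list's median log2 fold change was 0.52 at 24 h and 0.64 at 48 h, beside 0.03 and 0.02 for all genes. Grk2, the kinase that phosphorylates active opioid receptors, was at 6.94 to 12.2 CPM with vehicle, 32.3 to 45.2 after 24 h and 29.1 to 52.0 after 48 h. Its log2 fold change was 2.00 (SE 0.30, adjusted p = 0.00153) after 24 h and 1.96 (SE 0.30, adjusted p = 0.00153) after 48 h. Kcnj6, a subunit of GIRK channels, was at 5.89 to 8.87 CPM with vehicle, 23.0 to 29.0 after 24 h and 29.3 to 51.3 after 48 h. Its log2 fold change was 1.87 (SE 0.36, adjusted p = 0.00329) after 24 h and 2.35 (SE 0.37, adjusted p = 0.00155) after 48 h. Gnao1, the alpha subunit of Go, was at 39.1 to 51.1 CPM with vehicle, 103 to 120 after 24 h and 103 to 126 after 48 h (log2 fold change 1.29 and 1.41, adjusted p = 0.00308 and 0.00173). Adcy1, a calcium-stimulated adenylyl cyclase, passed with 0.52 at 24 h (adjusted p = 0.0201) and 0.62 at 48 h (adjusted p = 0.00689). For these 4 genes neither group overlapped vehicle, as was so for 35.7% of all genes at 24 h and 38.1% at 48 h. At 7 days Grk2 stood at 14.3, 30.4, 12.0 and 28.7 CPM and Kcnj6 at 6.10, 20.3, 7.59 and 24.6, with mice 2 and 4 again above mice 1 and 3. Over the 16 mice the log2 level of Rn18s-rs5 followed Kcnj6 (r = 0.97), Gnao1 (0.97) and Grk2 (0.95). With it as a covariate 0 of the 36 pathway genes passed at 24 h and 0 at 48 h, as did 0% of all genes. The part of that measure in these levels was not tested.

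**Figure D5:**
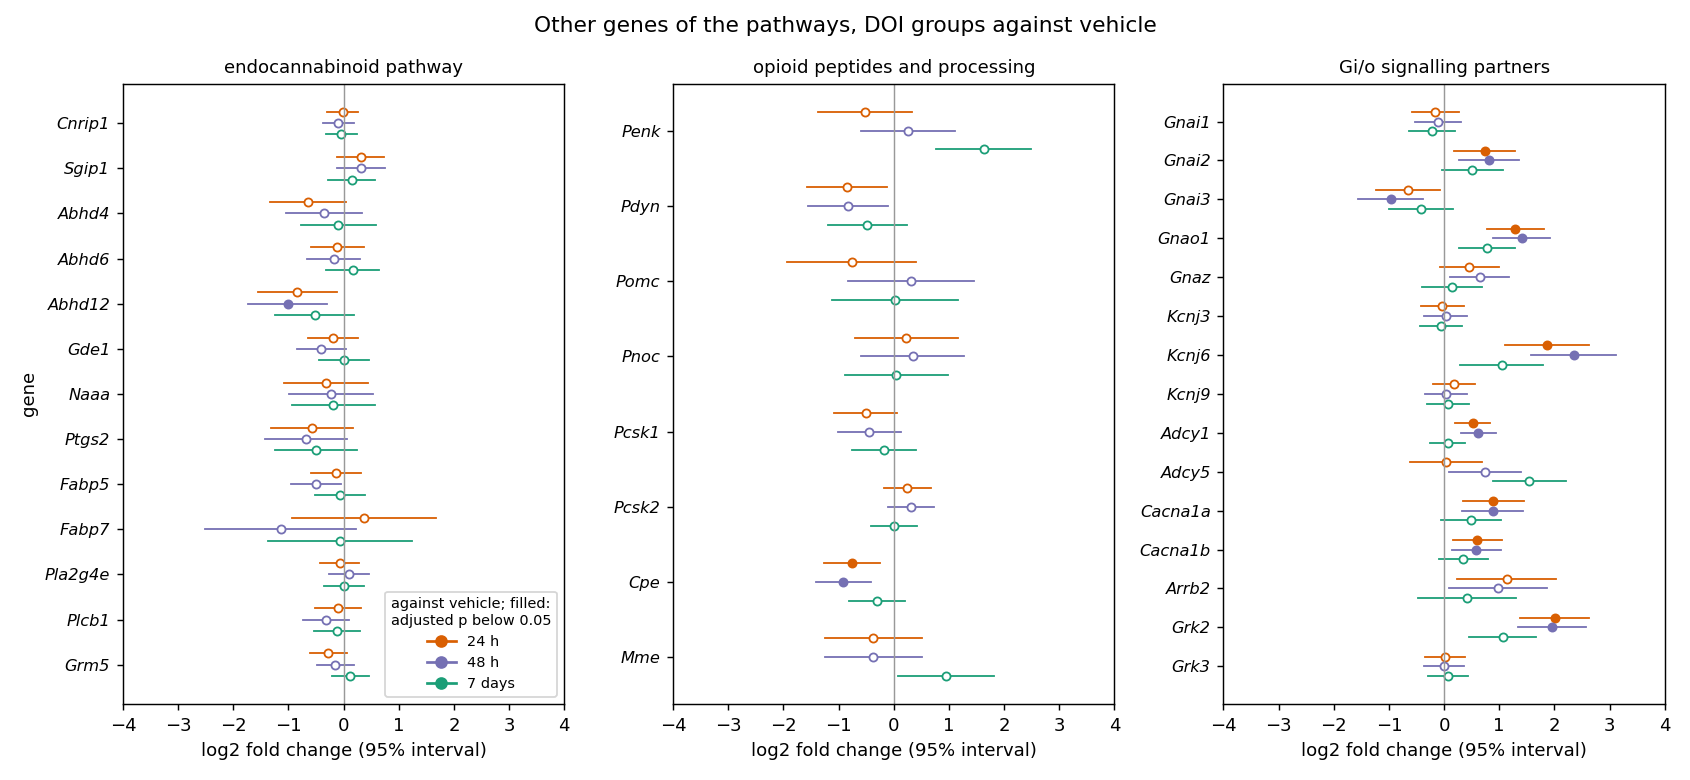
Log2 fold change with 95% interval (x axis) of the 36 further genes tested (y axis), in 3 panels by list, for 24 h, 48 h and 7 days against vehicle, filled where the adjusted p is below 0.05. In the panel of Gi/o partners 7 points at 24 h and 7 at 48 h are filled on the right, while the panel of endocannabinoid genes has 1 filled point, Abhd12 at 48 h.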

How the data were processed

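RNA of sorted NeuN+ nuclei was sequenced with SMART-seq2 chemistry and Nextera XT libraries, per the labels' protocols. The authors deposited a table of unnormalized read counts for each library. Per the file headers, these were made with featureCounts 2.0.0 from exons grouped by Ensembl gene (GRCm38 annotation), with no option set for strand, read pairs, multi-mapping or overlapping genes. At these defaults reads on exons of overlapping genes are left out and reads of either strand are counted. The aligner of the RNA reads is not given in the sources used here. The headers give the number 6 to mouse 1 at 24 h and to mouse 2 at 48 h and at 7 days. Their group is that of the labels, whose numbers were used.

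The 2 libraries of a mouse differed beyond sampling noise (chi-square of the counts per degree of freedom 1.39 to 2.90) and were added up, with the mouse as replicate. Genes were kept with filterByExpr (17941 of 55401), scaled by TMM, and tested in edgeR 4.0.16 (glmQLFit and glmQLFTest, R 4.3.3) in 1 fit of all 4 groups, and p-values were adjusted by Benjamini-Hochberg. Standard errors were derived from the log2 fold change and F, and intervals are at 95%. CPM used the TMM-scaled totals, and log2 CPM a prior count of 2. Symbols were matched to 55141 gene IDs, and coordinates are those of the files. On simulated counts for the 24 h comparison (17941 genes, dispersion 0.1) 151 of 200 genes changed 3-fold were recovered with 7 false calls.

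The 10 genes, the pathway lists and the marker lists were chosen with earlier results of these data known. All 10 genes are named in each comparison, and of each pathway list at most the 4 genes with the smallest p among those that passed. Likeness to Cnr1 and Oprm1 was ranked by Pearson's r of log2 CPM. The alternatives were DESeq2 1.42.0, limma 3.58.1 voom with quality weights, other scaling factors and filters, each library alone, counts thinned to 5834248 per mouse, the mouse number as a block, covariates, fits of only the groups compared, and each mouse left out in turn. The H3K27ac samples were not analysed here.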

Additional observations from a re-analysis of the deposited data

Results flagged for a closer look

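Of the 40 sets of 4 mice checked (10 genes in 4 groups), 1 held a mouse far from the other 3 by Dixon's test at the 95% level, where chance alone flags about 2. This was Oprm1 at 24 h, where mouse 1 stood at 4.57 CPM and the nearest of the other mice at 15.5 CPM, a gap of 0.908 of the group's range. Without that mouse the call at 24 h held, with a log2 fold change of 1.82 and an adjusted p of 0.00857. The same mouse had the fewest genes detected of its group (22989, the others 24829 to 25126) and the lowest Rn18s-rs5 level, and the part of these in its Oprm1 level was not tested.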

How the results depend on the processing

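The calls of Dagla and Oprd1 at 24 h and 48 h and of Oprm1 at 48 h held with each mouse left out and under every other alternative except the Rn18s-rs5 covariate. With that covariate 0 of the 10 genes passed at 24 h (0% of all genes in the same fit), 0 at 48 h (0%) and 0 in the test over the 4 groups (0.0279%), and 0 of the 36 pathway genes at 24 h and 0 at 48 h. In that fit the log2 differences at 24 h turned to 0.53 for Daglb, 0.17 for Mgll, 0.44 for Faah, 0.61 for Napepld, -0.34 for Oprm1 and 0.21 for Oprd1. At 48 h they turned to -0.30 for Dagla, 0.64 for Daglb, 0.14 for Mgll, 0.57 for Faah, 0.57 for Napepld and 0.57 for Oprd1, and at 7 days to -0.0210 for Dagla, 0.18 for Faah and 0.17 for Napepld. The covariate and the group shared most of their variance, and the cause was not tested.

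Shares in parentheses are again those of all genes in the same fit. With the striatal markers as a covariate 3 of the 10 genes passed at 48 h (21.4%), 5 for 7 days against 24 h (12.0%), 3 for 7 days against 48 h (12.4%) and 7 over the 4 groups (28.5%). The calls lost at 48 h in that fit were those of Daglb, Faah and Oprl1. There the 48 h value of Oprk1 turned to -0.27, and the 7 days values turned to -0.00887 for Dagla, 0.0288 for Daglb, 0.0201 for Mgll, 0.37 for Faah, 0.52 for Napepld and 0.10 for Oprl1. DESeq2 called 2 of the 10 genes at 7 days (4.44%), 5 over the 4 groups (28.6%) and 3 of the 36 pathway genes at 7 days. With no filter on low counts these were 3 (2.62%; Dagla, Oprm1 and Oprk1), 8 (13.7%) and 3, with 1 gene for 7 days against 24 h (1.38%) and 1 for 7 days against 48 h (1.82%). Limma voom called 7 over the 4 groups (39.7%) and 14 of the 36 pathway genes at 24 h (40.3%), and turned Cnr1 to 0.00691, Mgll to 0.0175 and Oprk1 to -0.15 at 24 h. Library 1 alone gave 5 over the 4 groups (19.8%). With only the groups compared in the fit 7 of the 10 genes passed at 24 h (36.7%) and 7 at 48 h (41.5%). With the 7 days group left out these were 7 (34.3%) and 7 (39.1%). Scaling by total counts moved the median of all genes from 0.03 to 0.14 at 24 h, with Mgll at 0.0343, and put Cnr1 at 0.0673 at 48 h.

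After seeing the data, leaving out the 3 mice with another number in the header gave 3 genes at 48 h (25.2%), with Oprk1 at -0.20 at 24 h and -0.29 at 48 h, Cnr1 at 0.10 at 48 h and Napepld at 0.00264 at 7 days. The calls lost were those of Daglb, Faah and Oprl1 at 48 h and of Daglb at 24 h. Leaving out the mice with the fewest genes at 24 h and 48 h gave 3 genes at 24 h (18.3%), with Oprk1 at -0.20. Daglb, Faah and Oprl1 were lost at 24 h, and Daglb and Faah at 48 h.

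With 1 mouse left out, 2 to 6 of the 10 genes passed after 24 h (13.9% to 21.2%), 3 to 7 after 48 h (19.0% to 26.4%), 0 to 2 after 7 days (0% to 7.26%) and 2 to 7 over the 4 groups (8.0% to 24.3%), and of the pathway genes 4 to 10, 6 to 10 and 0 to 5. Cnr1 ran from -0.27 to 0.0118 at 24 h, from -0.21 to 0.10 at 48 h and from -0.24 to 0.0478 at 7 days, Mgll from -0.18 to 0.0357 at 24 h, and Oprk1 from -0.20 to 0.61 and -0.29 to 0.63. Same-numbered mice are different animals, and their deviations correlated with a mean r of -0.04 over 24 pairs. With the mouse number as a replicate block 6 genes passed at 24 h (20.4%) and 4 at 48 h (26.0%), without Daglb and Oprl1. Oprd1 and Oprm1 rest on as few as 18 and 30 counts per mouse.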
